A study of Mus musculus with 4 samples.

Results

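The 10 genes described here are readouts and inhibitors of the fibroblast growth factor (FGF) and ERK pathway: Dusp4, Dusp6, Spry2, Spry4, Spred1, Egr1, Fos, Etv4, Etv5 and Ier3. They were listed by name, as genes that ERK signalling switches on or that hold it back. Each was listed once among the 25965 genes of the deposited table, and 10 of 10 passed the filter on low values, a mean log2 CPM (counts scaled to the library total) over the libraries of at least 0. RNA-seq was performed on 4 libraries of female mouse embryonic stem cells (mESCs) derived from FVB/NJ dams crossed to CAST/EiJ sires. The day 0 library came from undifferentiated cells expanded in 2i medium with LIF, before any hairpin was delivered. The other 3 came from day 6, after cells had been weaned into serum medium without 2i or LIF, given a short hairpin by virus on day 2 and put under puromycin from day 3. Those cells carried a non-silencing hairpin (Nons) or 1 of 2 hairpins against Smarca4, named Smarca4.4 and Smarca4.6. The product of Smarca4 is a motor subunit of BAF, a chromatin remodeller. Every group is 1 library, so differences could not be set against replicate spread and none was tested. How many mESC lines stand behind each library was not given in the sources used here.

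FGF binds receptor tyrosine kinases, which act through RAS, RAF and MEK to phosphorylate ERK. Active ERK then switches on immediate-early genes and ETS transcription factors together with its own inhibitors, so these transcripts are widely used as a readout of the pathway. In mESCs, FGF4 and ERK are known for promoting exit from naive pluripotency, and 2i medium contains an inhibitor of MEK, the kinase above ERK.

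The hairpins are shown because the day 6 comparisons rest on them. Each guide is given 5′ to 3′ with its seed, bases 2 to 8, in capitals.
Nons: cTTACTCTcgcccaagcgagag
Smarca4.4: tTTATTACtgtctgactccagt
Smarca4.6: tTGCATAAtagtgttcatcagt
The Smarca4.4 guide was perfectly complementary to the 3′ UTR of Smarca4 at chr9:21703327-21703348 (mm10, plus strand), and the Smarca4.6 guide to its coding sequence at chr9:21670504-21670525. Across the GENCODE M21 transcripts each matched Smarca4 and no other gene over its full length. The Nons guide matched 0 genes, and none of the 10 feedback genes held a full match. Shorter matches, such as to the seed alone, were not searched.

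Smarca4 itself stood at 244 CPM at day 0, 229 in Nons, 131 with Smarca4.4 and 174 with Smarca4.6. Relative to Nons it was 57.3% with Smarca4.4 and 75.8% with Smarca4.6, a difference of -0.80 (95% counting interval -0.85 to -0.76) and -0.40 (-0.44 to -0.35) on the log2 scale, so knockdown was partial with both hairpins and short of 2-fold. Depth ran from 18599402 reads at day 0 to 47143739 in Smarca4.4, where 3 reads, taken as the smallest level a library can show, correspond to 0.161 and 0.0636 CPM. Reads are not independent molecules, so all intervals here are for counting error alone. Markers of naive mESCs, 10 in all, summed to 4301 CPM at day 0. In Nons 9 of the 10 had fallen at least 2-fold, with a median log2 difference of -5.05, while Pou5f1 was 0.34 above day 0.

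The phosphatases Dusp4 and Dusp6 were low at day 0 and far higher in every day 6 library. Dusp6, on chromosome 10 (99263231 to 99267488, plus strand), encodes a cytoplasmic phosphatase that removes the activating phosphates of ERK. It had 2.10 CPM at day 0 (39 reads), 239 in Nons, 312 with Smarca4.4 and 326 with Smarca4.6. The day 6 levels lay close together and far above day 0, with Nons the lowest of the 3. Between day 0 and Nons the gene rose 114-fold, a log2 difference of 6.84 (6.38 to 7.33). Against Nons it was higher by 0.38 (0.35 to 0.42) with Smarca4.4 and 0.44 (0.41 to 0.48) with Smarca4.6. In bulk RNA a larger share of cells with a transcript and more of it per cell cannot be told apart, which holds for every difference given here.

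Dusp4, on chromosome 8 (34807297 to 34819894, plus strand), encodes the nuclear counterpart, which dephosphorylates ERK among other MAP kinases. Its level was 1.67 CPM at day 0 (31 reads), 55.2 in Nons, 39.1 with Smarca4.4 and 48.3 with Smarca4.6. It rose 33.1-fold by day 6, a log2 difference of 5.05 (4.54 to 5.61). Unlike Dusp6, Dusp4 stood highest in Nons: the difference was -0.50 (-0.58 to -0.41) with Smarca4.4 and -0.19 (-0.28 to -0.10) with Smarca4.6, both short of 2-fold.

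Sprouty and Spred proteins restrain signalling between the receptor and RAF, and the 3 genes measured here took different courses over the libraries. Spry4 lies on chromosome 18 (38586268 to 38601268, minus strand) and had 0.215 CPM at day 0, which is 4 reads. At day 6 it was at 29.9 CPM in Nons, 25.4 with Smarca4.4 and 38.5 with Smarca4.6. Its rise of 139-fold between day 0 and Nons is uncertain in size, because the 4 reads leave a wide interval, 7.12 (5.76 to 8.99) on the log2 scale, and a pseudocount of 1 CPM gave 4.67. Against Nons the hairpins lay on opposite sides, with Smarca4.4 at -0.23 (-0.35 to -0.12) and Smarca4.6 at 0.37 (0.26 to 0.48).

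Spry2, on chromosome 14 (105891949 to 105896819, minus strand), was already present in undifferentiated cells. The level was 25.2 CPM at day 0, 21.2 in Nons, 32.8 with Smarca4.4 and 48.1 with Smarca4.6. Nons was the lowest of the 4 libraries and Smarca4.6 the highest. Nons differed from day 0 by -0.24 (-0.40 to -0.082), short of 2-fold. With Smarca4.6 it rose 2.27-fold over Nons, 1.18 (1.07 to 1.29) on the log2 scale, and with Smarca4.4 it was 1.55-fold above Nons at 0.63 (0.51 to 0.75).

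Spred1, on chromosome 2 (117121374 to 117182279, plus strand), encodes a RAS pathway inhibitor that works with neurofibromin. It had 27.5 CPM at day 0, 77.5 in Nons, 75.6 with Smarca4.4 and 73.2 with Smarca4.6. The 3 day 6 libraries were alike, all above day 0. The gene rose 2.82-fold by day 6, 1.496 (1.36 to 1.63) on the log2 scale, and differed from Nons by -0.035 (-0.10 to 0.033) with Smarca4.4 and -0.081 (-0.15 to -0.0085) with Smarca4.6.

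**Figure D1:**
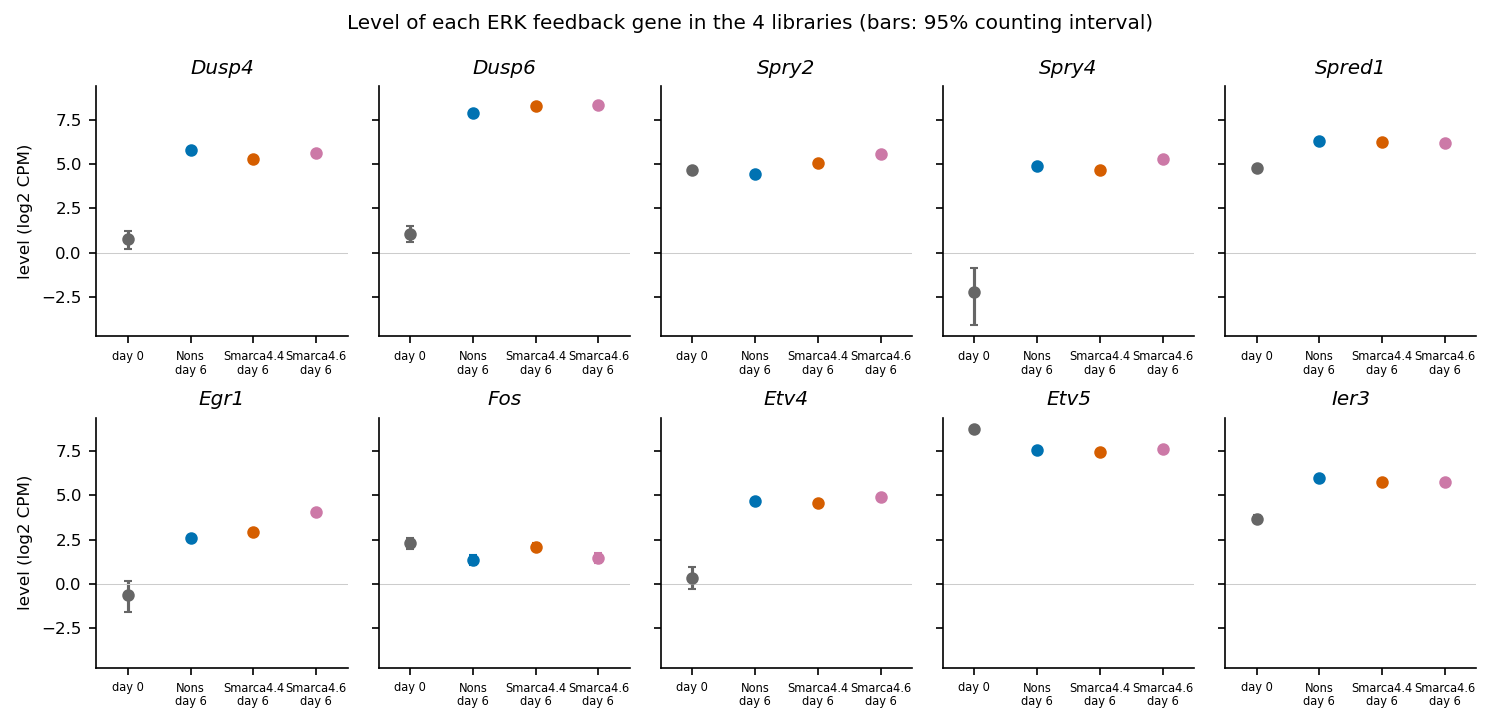
Level of each gene in log2 CPM (y axis) in the 4 libraries (x axis), 1 point per library, with bars for the 95% counting interval. Dusp4, Dusp6, Spry4 and Etv4 stand far below their day 6 levels at day 0, from 0.215 to 2.10 CPM, whereas Etv5 is highest at day 0 with 424 CPM.

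The ETS factors Etv4 and Etv5, both of the PEA3 subfamily, went in opposite directions. Etv4, on chromosome 11 (101769742 to 101785371, minus strand), had 1.29 CPM at day 0 (24 reads), 25.9 in Nons, 24.2 with Smarca4.4 and 30.03 with Smarca4.6. It rose 20.1-fold by day 6, 4.33 (3.75 to 4.98) on the log2 scale. Etv5, on chromosome 16 (22381309 to 22439719, minus strand), stood at 424 CPM at day 0 and at 189.6 in Nons, 177 with Smarca4.4 and 201 with Smarca4.6. Every day 6 library was below day 0, and the 2.24-fold fall to Nons, -1.16 (-1.21 to -1.12), made Etv5 the only one of the 10 to fall by at least 2-fold. The hairpin differences of both were small. For Etv4 they were -0.10 (-0.22 to 0.017) with Smarca4.4 and 0.21 (0.092 to 0.33) with Smarca4.6, and for Etv5 -0.10 (-0.15 to -0.059) and 0.081 (0.036 to 0.13).

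Egr1 and Fos are immediate-early genes, transcribed within minutes of ERK activation and encoding a zinc finger factor and an AP-1 subunit. Egr1, on chromosome 18 (34859823 to 34864984, plus strand), had 0.645 CPM at day 0 (12 reads), 6.14 in Nons (281 reads), 7.64 with Smarca4.4 (360 reads) and 16.9 with Smarca4.6 (615 reads). The Smarca4.6 library stood apart from the other 2 of day 6. Egr1 rose 9.52-fold between day 0 and Nons, 3.25 (2.42 to 4.22) on the log2 scale, or 2.12 with a pseudocount of 1 CPM. With Smarca4.6 it rose a further 2.74-fold over Nons, 1.46 (1.25 to 1.67), while the Smarca4.4 difference was 0.31 (0.085 to 0.54).

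Fos, on chromosome 12 (85473890 to 85477273, plus strand), had 4.89 CPM at day 0 (91 reads), 2.56 in Nons (117 reads), 4.33 with Smarca4.4 (204 reads) and 2.82 with Smarca4.6 (103 reads). Day 0 and Smarca4.4 were the higher pair, Nons and Smarca4.6 the lower. The difference of Nons from day 0 was -0.94 (-1.34 to -0.52), just short of 2-fold. Against Nons it was 0.76 (0.42 to 1.10) with Smarca4.4 and 0.14 (-0.25 to 0.54) with Smarca4.6. Fos and Egr1 thus took their highest day 6 levels in different hairpin libraries.

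Ier3, a short immediate-early gene linked to cell survival and ERK activity, lies on chromosome 17 (35821684 to 35822923, plus strand). Its level was 13.0 CPM at day 0, 62.4 in Nons, 55.3 with Smarca4.4 and 53.8 with Smarca4.6. It rose 4.82-fold by day 6, 2.27 (2.08 to 2.46) on the log2 scale. Both hairpin libraries were slightly below Nons, by -0.18 (-0.25 to -0.099) and -0.22 (-0.30 to -0.13).

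Promoters of 3 of these genes are shown because they hold the same 6 letters while the genes took different courses. The sequences are the 250 bases before the RefSeq start site (GRCm38.p6), read along the gene, with the searched letters in capitals.
Dusp6, chr10:99262981-99263230: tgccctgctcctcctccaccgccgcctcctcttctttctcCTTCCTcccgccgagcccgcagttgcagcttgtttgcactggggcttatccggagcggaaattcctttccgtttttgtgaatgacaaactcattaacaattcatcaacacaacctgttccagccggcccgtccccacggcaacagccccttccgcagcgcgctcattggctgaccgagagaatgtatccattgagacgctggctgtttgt
Ier3, chr17:35821463-35821712: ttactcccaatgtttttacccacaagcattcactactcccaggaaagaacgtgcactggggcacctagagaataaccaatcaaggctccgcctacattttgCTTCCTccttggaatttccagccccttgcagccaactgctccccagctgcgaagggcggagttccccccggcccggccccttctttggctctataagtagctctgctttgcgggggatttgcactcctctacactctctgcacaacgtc
Fos, chr12:85473640-85473889: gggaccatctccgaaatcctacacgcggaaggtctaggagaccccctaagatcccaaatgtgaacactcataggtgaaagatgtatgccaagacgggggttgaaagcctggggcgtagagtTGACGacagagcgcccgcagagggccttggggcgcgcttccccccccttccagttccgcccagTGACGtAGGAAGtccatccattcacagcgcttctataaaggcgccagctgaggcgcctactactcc
The letters AGGAAG, the core that PEA3 factors such as Etv4 and Etv5 bind, were found in Fos at positions -60 to -55 from the start site, and on the opposite strand, as CTTCCT, in Dusp6 at -210 to -205 and in Ier3 at -149 to -144. Dusp6 and Ier3 rose 114-fold and 4.82-fold by day 6, while Fos was 1.91-fold below day 0. Fos also held TGACG, the core of the cyclic AMP response element, at -129 to -125 and at -66 to -62. Windows of 6 of the genes were searched on both strands, the others being Spred1, Spry2 and Etv5. AGGAAG was in 3 of 6 genes and in 29.5% of all 32841 promoters of this length, and TGACG in 1 of 6 and in 17.8%. The ETS letters CCGGAA (12% of all promoters), the AP-1 letters TGANTCA (6.75%) and the CArG box (1.47%) were in 0 of 6. The motifs were chosen with these sequences in view, and a match is a description of letters, not of a bound site. The promoters of Dusp4 and Etv4 were not used here, and those of Egr1 and Spry4 were left out of the 6 and are not shown. The motif counts therefore say nothing about these genes.

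Levels of different genes were compared only after division by exon length, as log2 CPM per kb of exon. At day 0 Etv5 led at 6.69, followed at a distance by Spry2 at 3.59 and Ier3 at 3.52, and Egr1 and Spry4 came last at -2.80 and -4.47. In Nons the order was led by Dusp6 at 6.26, then Ier3 at 5.79 and Etv5 at 5.53, with Egr1 at 0.45 and Fos at 0.12 last. Dusp6 thus moved from sixth place to the top, which it kept with Smarca4.4 (6.64) and Smarca4.6 (6.70). Spry2 stood below Spred1 in Nons, 3.35 against 3.51, and above both Spred1 and Dusp4 in the hairpin libraries, at 3.98 with Smarca4.4 and 4.53 with Smarca4.6. Counting intervals of neighbours in the order overlapped in 4 of 9 pairs at day 0: Spry2 with Ier3, Dusp6 with Dusp4, Dusp4 with Etv4, and Egr1 with Spry4. At day 6 they overlapped in 1 of 9 pairs in each library, Egr1 with Fos in Nons and Smarca4.4 and Etv5 with Ier3 in Smarca4.6.

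**Figure D2:**
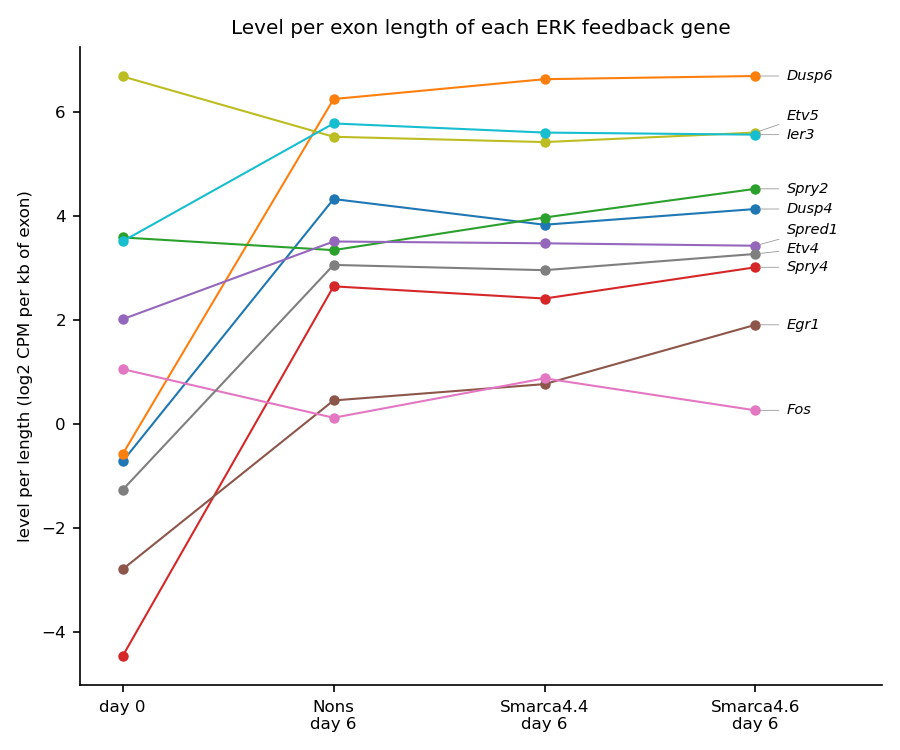
Level per length of each gene (y axis, log2 CPM per kb of exon) in the 4 libraries (x axis). Lines join the values of 1 gene and stand for no order among the day 6 libraries. Dusp6 goes from -0.58 at day 0 to 6.26 in Nons, while Etv5 goes from 6.69 to 5.53.

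The comparison of Nons with day 0 asks how the genes differ between undifferentiated cells and cells after 6 days. Of the 10, 7 rose at least 2-fold (Spry4, Dusp6, Dusp4, Etv4, Egr1, Ier3 and Spred1) and 1 fell (Etv5), beside 19.6% and 12.3% of the 13264 genes kept. The median log2 difference of the 10 was 2.76, and that of all genes kept 0.031. The 10 were chosen with earlier results of these data known, so neither the count nor the median is a test. Spry4 ranked 73rd, Dusp6 91st and Dusp4 271st from the top among the genes kept. With a pseudocount of 1 CPM the same 7 stayed past 2-fold, but Dusp6 at 6.28 came before Spry4 at 4.67, Dusp4 was at 4.396 and Etv4 at 3.56. Medium, time, transduction and selection all differ between these libraries and cannot be told apart.

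**Figure D3:**
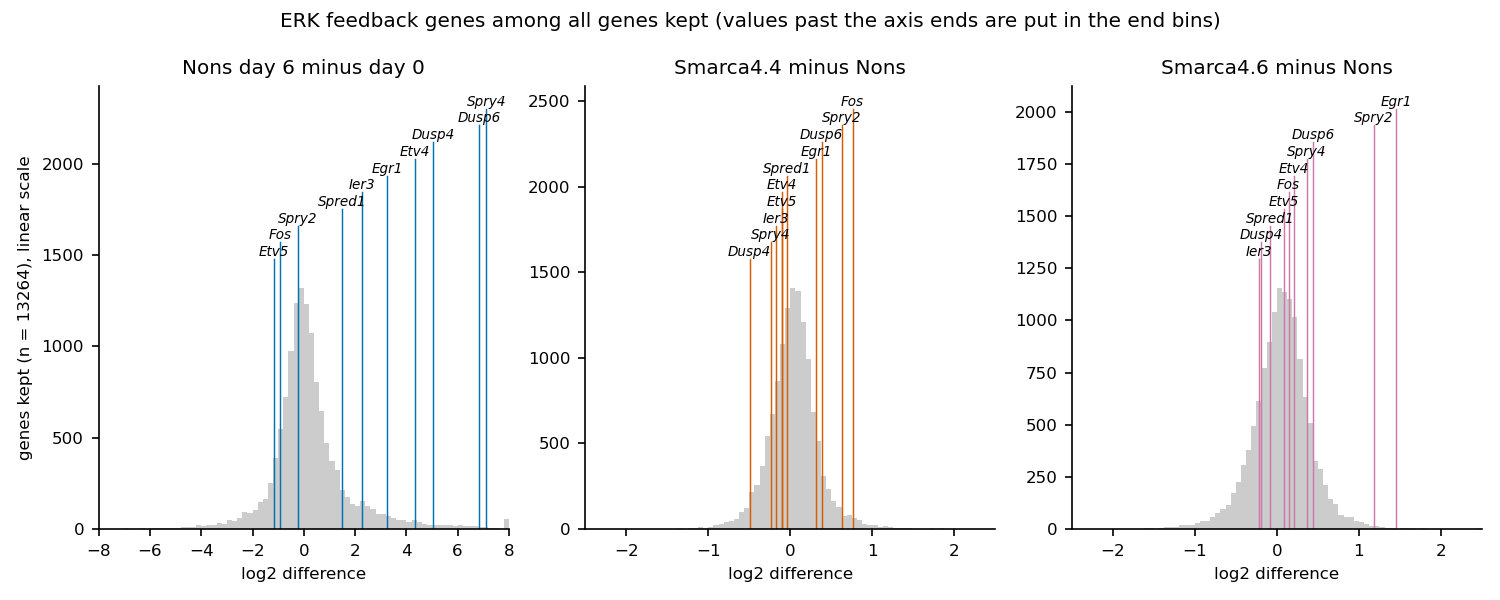
Grey bars count the 13264 genes kept by log2 difference (x axis) in 3 comparisons, on a linear scale. Each coloured line marks the value of 1 of the 10 genes, and its height only makes room for the name. Spry4 (7.12) and Dusp6 (6.84) lie far to the right for Nons minus day 0, and Egr1 (1.46) and Spry2 (1.18) for Smarca4.6 minus Nons.

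Whether Smarca4 depletion touched these genes was read from each hairpin library against Nons, a control that both comparisons share. With Smarca4.4, 0 of the 10 differed by 2-fold, beside 0.882% of genes kept that were higher and 0.309% that were lower. At 1.5-fold, 2 were past it, Spry2 and Fos, beside 6.4% of genes kept in either direction. The values ran from -0.50 for Dusp4 to 0.76 for Fos, with a median of -0.068 where that of all genes was 0.038. Counting intervals excluded 0 for 4 genes above Nons (Fos, Spry2, Dusp6 and Egr1) and 4 below (Dusp4, Spry4, Ier3 and Etv5), and included 0 for Spred1 and Etv4. At these depths the interval lay above 0 for 34.4% of all genes kept and below 0 for 24.3%, so a member clear of 0 is not set apart by that.

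With Smarca4.6, 2 of the 10 rose at least 2-fold, Egr1 and Spry2, and 0 fell, beside 1.03% of genes kept that were higher and 0.799% that were lower. Egr1 ranked 29th and Spry2 63rd from the top of the genes kept. The median of the 10 was 0.18 where that of all genes was 0.064. Intervals lay above 0 for 6 genes, below 0 for Dusp4, Spred1 and Ier3, and included 0 for Fos, where 39.6% of all genes kept lay above 0 and 24.4% below.

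**Figure D4:**
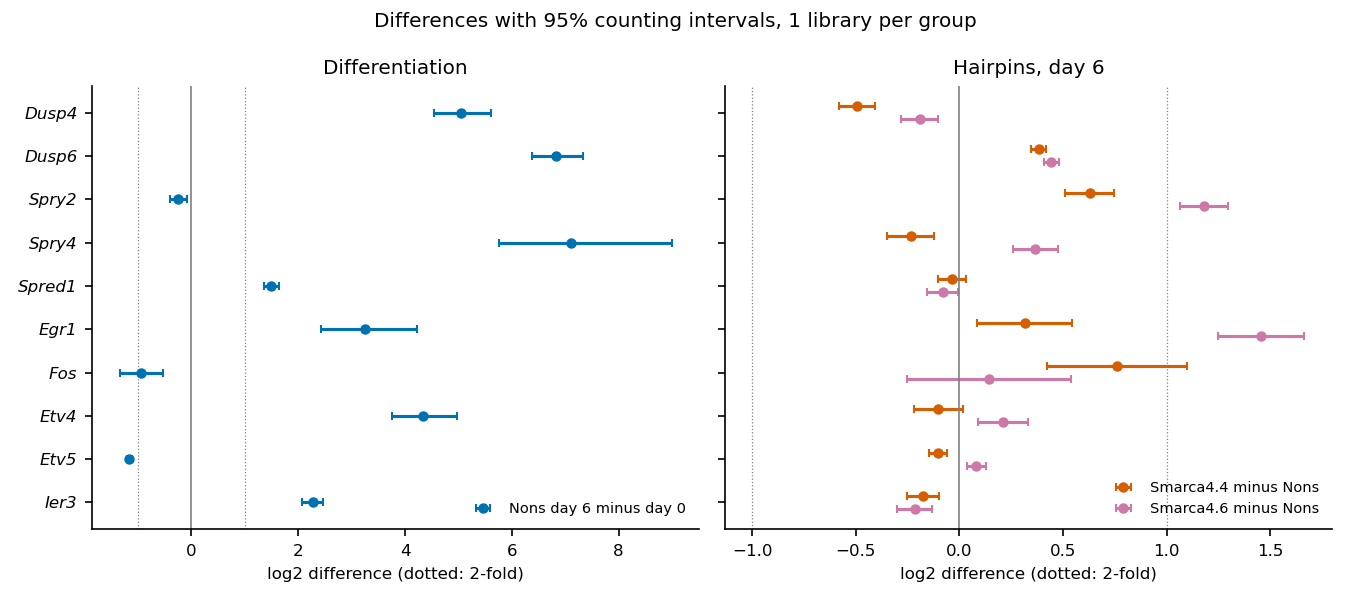
Log2 difference (x axis) of each gene (y axis) with 95% counting intervals, for Nons minus day 0 on the left and for each hairpin minus Nons on the right. Dotted lines mark 2-fold. On the right, Egr1 and Spry2 with Smarca4.6 are past the dotted line and all other points lie within it.

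The hairpin libraries were also set directly against each other, a comparison in which Nons has no part. Egr1 was the only gene of the 10 past 2-fold, at -1.14 (-1.33 to -0.95) for Smarca4.4 minus Smarca4.6, beside 0.241% of genes kept that were lower by as much and 0.415% that were higher. It ranked 18th from the bottom of the genes kept. At 1.5-fold Spry4 and Fos joined it, beside 4.48% of genes kept in either direction. Spry4 differed by -0.60 (-0.71 to -0.49), Spry2 by -0.55 (-0.65 to -0.45) and Fos, in the other direction, by 0.62 (0.27 to 0.97). Etv4 at -0.31, Dusp4 at -0.30, Etv5 at -0.18 and Dusp6 at -0.061 were also lower in Smarca4.4, and intervals included 0 for Spred1 and Ier3. Smarca4 RNA was at 57.3% of Nons with Smarca4.4 and 75.8% with Smarca4.6. Whether the differences between the hairpins are linked to this was not tested.

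Other genes of the pathway were taken from 6 lists, of which 96 genes were listed in the table and 79 passed the filter. The list counts between day 0 and Nons stand beside 19.6% of all genes kept that rose at least 2-fold and 12.3% that fell. Among ligands, 7 of 18 passed, and 3 rose and 4 fell at least 2-fold between day 0 and Nons (median -1.03). Fgf5, a marker of the primed epiblast, rose by 8.82 (7.27 to 11.10) from 3 reads, followed by Fgf15 at 3.82 and Fgf8 at 2.63. Of the 7 that passed, Fgf3 at -2.30 and Fgf17 at -1.51 had the largest falls. The filter averages more day 6 libraries than day 0 libraries, so a gene high only at day 0 can stay under it. Fgf10 was under the filter and also fell, with reads given below. Fgf4, named here for its role as the main FGF of naive mESCs, fell by 1.03 on the log2 scale. Of the receptors and co-receptors, 6 of 7 passed. Fgfr2 rose by 1.11, Fgfr3 and the co-receptor Klb fell by 1.97 and 6.32, and Fgfr1 was 0.44 above day 0 (median of the list -0.40).

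Of the other growth factor receptors, 9 of 10 passed, and 3 rose and 2 fell (median 0.62), beside the same 19.6% and 12.3% of all genes kept. Met (3.70) and Egfr (3.20) led the rises, and Kit (-4.74) and Pdgfrb (-1.49) fell. In the cascade between receptor and ERK, 3 of 22 genes were higher and 2 lower (median -0.078), a little below those shares. Mapk3, which encodes ERK1, rose by 2.54 and the adaptor Shc1 by 1.83, while the scaffold Ksr1 and the ERK-activated kinase Rps6ka3 fell by 1.78 and 1.25. Of the other ERK inhibitors, 15 of 16 were found and passed, and 6 rose and 0 fell (median 0.95). Spred3 at 4.49 and Il17rd, also called Sef, at 2.30 led them, and the lowest values were -0.37 for Cbl and -0.28 for Spred2. The immediate-early and ERK-responsive list had 20 of 24 genes past the filter, of which 14 rose and 1 fell (median 1.84). Cyr61 (5.32) and Junb (3.78) rose most, the cell cycle gene Ccnd1 fell by 1.65, and Ier2 was at -0.16.

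Against Nons, Smarca4.4 put 0 of these 79 genes past 2-fold, beside 0.882% of genes kept that were higher and 0.309% that were lower. At such shares a count of 0 does not set the 79 apart. List medians with Smarca4.4 ran from -0.092 for FGF receptors to 0.30 for ligands. Smarca4.6 put 3 past 2-fold, all higher, namely Fgf8, Etv1 and Myc, beside 1.03% of genes kept that were higher and 0.799% that were lower. List medians with Smarca4.6 ran from -0.28 for FGF receptors to 0.54 for ligands. Fgf8, which had 76 reads in Nons, 45 with Smarca4.4 and 190 with Smarca4.6, rose by 1.65 (1.26 to 2.05) with Smarca4.6 and was at -0.80 with Smarca4.4. It was also the 1 gene of the 79 past 2-fold between the hairpins, at -2.45 (-2.95 to -1.97) for Smarca4.4 minus Smarca4.6. Of all genes kept, 0.241% were lower by at least 2-fold in that comparison and 0.415% higher. Etv1, the third PEA3 factor, rose by 1.30 (1.05 to 1.54) with Smarca4.6 and was at 0.48 with Smarca4.4. Myc rose by 1.08 (0.98 to 1.17) and was at 0.79 (0.69 to 0.88).

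**Figure D5:**
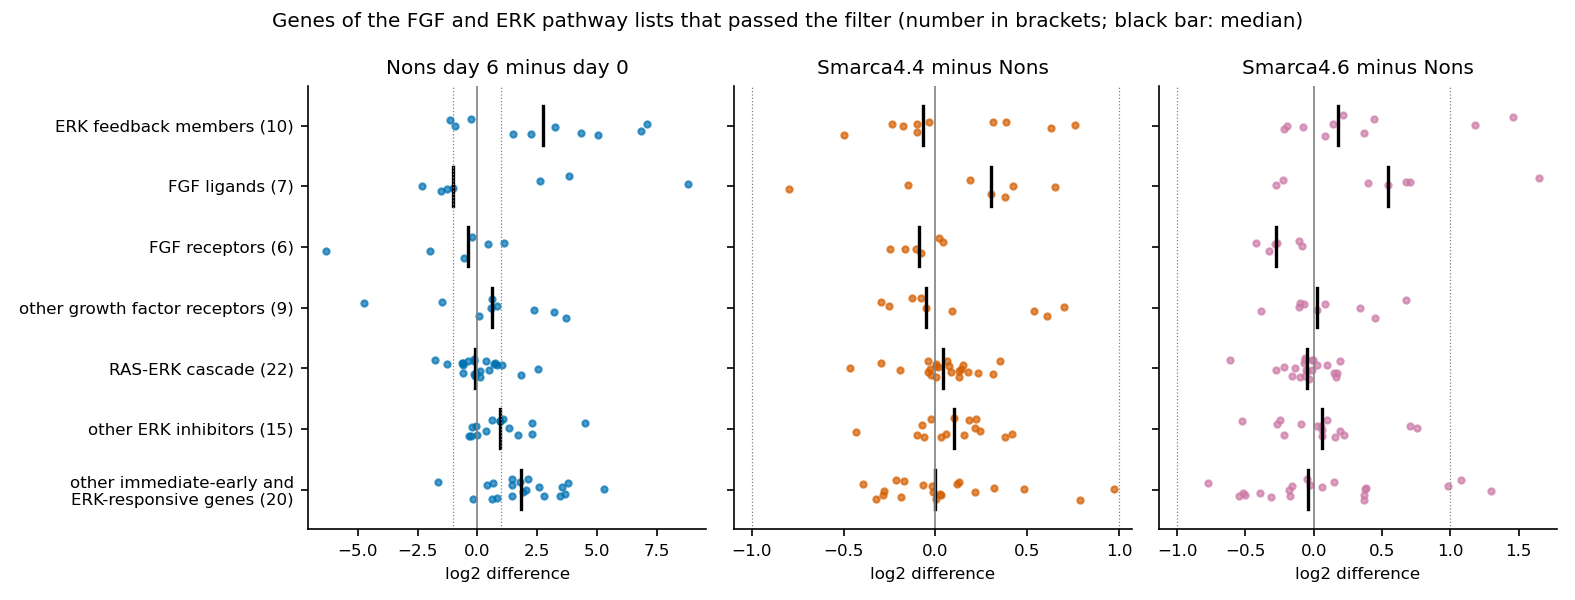
Log2 difference (x axis) of every gene past the filter in the 10 feedback genes and the 6 pathway lists (y axis, number of genes in brackets) in 3 comparisons with separate x scales. Points are genes, black bars medians and dotted lines 2-fold. For Nons minus day 0 the feedback genes (median 2.76) and the immediate-early and ERK-responsive genes (1.84) have the highest medians. The lists were chosen with earlier results of these data known.

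Immediate-early genes are also induced by handling of cells, so 8 heat shock genes were read beside them. The sources differ on the harvest: the labels have the cells lifted from the plate first, and the methods have them lysed in place. All 8 were above Nons with Smarca4.4 and 7 of 8 with Smarca4.6, with median log2 differences of 0.41 and 0.45. The medians of all genes kept were also above 0, at 0.038 and 0.064. The heat shock genes summed to 4551 CPM in Nons, 5913 with Smarca4.4 and 5550.0 with Smarca4.6. Hspa1a rose by 1.23 with each hairpin, from 56 reads in Nons to 135 and 105, although its reads are uncertain because Hspa1b is nearly identical. At day 0, where Egr1 was at its lowest level and Fos at its highest, the sum was 8676 CPM, and Hsph1 and Hspd1 fell by 2.01 and 1.37 from there to Nons. Their part in the Egr1 and Fos values was not tested.

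Markers of other cell types were read in the same way. The 10 markers listed as naive summed to 1053 CPM in Nons, 830.0 with Smarca4.4 and 1097 with Smarca4.6. Pou5f1 is among them, although it stood 0.34 above day 0 in Nons where the other 9 had fallen at least 2-fold. Gene by gene, 6 of the 10 were above Nons and 4 below with Smarca4.4, with a median log2 difference of 0.072. With Smarca4.6, 5 were above and 5 below, with a median of -0.011, so the sums do not stand for the typical naive marker. Over the same libraries trophoblast markers summed to 79.1, 125 and 97.6 CPM, and among them Hand1 rose by 1.59 with Smarca4.4 and was at 0.77 with Smarca4.6. Primitive endoderm markers summed to 26.9, 33.4 and 33.1 CPM, mesenchyme and fibroblast markers to between 25.8 and 27.95, and neural markers to between 441 and 481. Of the 6 blood cell markers, Ptprc and Tyrobp were at 0 reads in all 4 libraries. The 6 together summed to 84.7 CPM at day 0, 35.9 in Nons, 19.2 with Smarca4.4 and 28.9 with Smarca4.6. The part of these cell types in the hairpin differences was not tested.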

How the data were processed

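Total RNA was sequenced as paired-end Illumina libraries. Per the study's methods, the authors trimmed reads with trim_galore, aligned them with HISAT2 (tophat is also named) to mm10 with FVB/NJ and CAST/EiJ polymorphisms masked, and quantified genes in SeqMonk. Strand setting and annotation release were not given in the sources used here. The deposited values are log2 CPM with both alleles combined, 1 column per library. Groups came from sample titles, since a genotype field describes the day 6 libraries, Nons included, as Smarcc knockdown.

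Values were whole multiples of 1 step in each library, which gave reads and totals (18599402 at day 0, 45759793 in Nons, 47143739 with Smarca4.4 and 36495575 with Smarca4.6). Within a tolerance of 0.05 reads, 100% of values of up to 1000 reads came out whole; a gene with 0 reads carried 0.9 of that step. The filter left 13264 genes. A gene was called when it differed by at least 2-fold, with exact (Clopper-Pearson) 95% intervals. Single libraries allow no fit across genes.

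Named genes were the 10, Smarca4, and any list gene called against Nons. In each other list, the 2 genes past the filter that rose and the 2 that fell most from day 0 to Nons were also named. The members and lists were chosen with earlier results of these data known. Spry3 was not found, and Hras and Ccn1 were read as Hras1 and Cyr61. Exon lengths and hairpin matches used GENCODE M21. No exon of the 10 overlapped another gene. The calculation was tested on simulated reads. Alternatives were no filter, a mean of at least 3, a pseudocount of 1 CPM, a 1.5-fold threshold, centring on the autosomal median and median-of-ratios scaling. The software was Python 3.11.15 (pandas 2.3.3, numpy 2.4.6, matplotlib 3.10.9, scipy 1.17.1).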

Additional observations from a re-analysis of the deposited data

Results flagged for a closer look

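Spry4 and Etv5 lay on opposite sides of Nons with the 2 hairpins, with both counting intervals clear of 0. Spry4 was at -0.23 with Smarca4.4 and 0.37 with Smarca4.6. Etv5 was at -0.10 and 0.08. With 1 library per hairpin the difference between them was not tested against replicate spread, and the Etv5 values are small, and with median-of-ratios scaling the Smarca4.6 one was 0.0082.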

How the results depend on the processing

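No result reversed under any of the 66 alternatives run for the counts, medians and Smarca4 differences, or of the 120 run for single genes. With a pseudocount of 1 CPM, the median difference of the 10 genes between day 0 and Nons was 2.15 in place of 2.76, since that setting shrinks differences from low levels. The 1.5-fold threshold called 2 of the 10 for Smarca4.4 (Spry2 and Fos, where 2-fold called 0) and 3 between the hairpins (where 2-fold called 1). The stricter filter, which kept 8 of the 10 and dropped Egr1 and Fos, left 1 call for Smarca4.6 in place of 2, and 0 between the hairpins in place of 1. Of the pathway lists, no filter called 6 of 96 genes for Smarca4.4, 10 for Smarca4.6 and 4 between the hairpins. The calls reported were 0, 3 and 1 of 79. The share of all genes without the filter was not computed, so the unfiltered counts have nothing to be set beside. The stricter filter called 1 of 66 for Smarca4.6 and 0 between the hairpins. The 1.5-fold threshold called 6 of 79 with Smarca4.4, 11 with Smarca4.6 and 3 between the hairpins. In the same order, 6.4%, 9.51% and 4.48% of all genes kept were past it. The Smarca4 difference with Smarca4.6 was -0.46 with centring and -0.47 with median-of-ratios scaling in place of -0.40. Both settings move every gene of a comparison by the same amount, which for centring is the autosomal median, here 0.061. No paired analysis was possible because every group had a single library, all 4 with replicate number 3, and for the same reason no replicate could be left out. At day 0, Spry4 (4 reads) and Egr1 (12 reads) are limited by depth.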

Other observations

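Several pathway genes were under the filter on low values and at least 2-fold from Nons with a hairpin, all on few reads. Egr2, a relative of Egr1, had 0 reads at day 0, 9 in Nons, 46 with Smarca4.4 and 42 with Smarca4.6. Fosb, a relative of Fos, came to 0, 5, 45 and 10 reads over those libraries and Egr3 to 0, 5, 12 and 18. Fosb, like Fos, was thus highest at day 6 with Smarca4.4. The ligands Fgf10 (36, 3, 9 and 8 reads), Fgf18 (5, 6, 16 and 17) and Fgf22 (2, 6, 13 and 9) and the co-receptor Kl (1, 11, 22 and 21) had more reads with both hairpins than in Nons, and Fgf16 had 2 reads with Smarca4.6 and 0 elsewhere.

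Among the 89 genes made up of the 10 and the pathway genes past the filter, the profile over the 4 libraries nearest to Dusp6 was that of Spry4, and the reverse, at a distance of 0.48 on the log2 scale after each profile was centred on its mean. Dusp4 was nearest to Etv4 (0.51), Etv4 to Junb (0.43), Ier3 to Igf1r (0.12), Spred1 to Jun (0.094) and Etv5 to Rps6ka3 (0.18). Spry2 was nearest to Ier2 (0.65), Fos to Sos1 (0.50) and Egr1 to Myc (0.71), the least close of the 10. The distances are a description over 4 libraries and leave counting error out. Spry4 had 4 reads at day 0, and its difference between day 0 and Nons had an interval of 5.76 to 8.99. That is wider than its distance to Dusp6, so its nearest gene is not settled.

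Among marker genes, Prdm14 fell by 7.71 and Tbx3 by 6.35 between day 0 and Nons, and Tbx3 fell a further 1.12 with Smarca4.6. Nes, a neural progenitor gene, rose by 3.12, while Pax6 and Tubb3 were at -0.85 and -0.94. Col1a2 (4.14), Col1a1 (2.56), Dab2 (3.59), Gata4 (1.29), Hand1 (4.58), Krt7 (4.33) and Coro1a (5.64) rose, and Tfap2c fell by 2.40. Laptm5 fell by 5.03 and then by 1.13 with Smarca4.4 and 3.74 with Smarca4.6. In the Smarca4.6 library Laptm5 lay close to the level of 3 reads, 0.0822 CPM, so the size of that last fall is uncertain. Hspb1 was 0.80 above day 0. Blood cell markers summed to 84.7 CPM at day 0 and to 35.9 in Nons, 19.2 with Smarca4.4 and 28.9 with Smarca4.6. Below the filter, the neural factor Sox1 had 15, 9, 140 and 30 reads in the 4 libraries, and the other 8 marker genes there that were 2-fold from Nons with a hairpin had at most 63 reads in any library.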
